A study of Mus musculus with 16 samples.

Results

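Total RNA of adult mouse retina was measured on 1-colour oligonucleotide arrays at 2 sites, and the values of the 3 arrays of site 2 were compared with those of the 5 arrays of the first site. These 8 arrays were chosen by their titles from the 16 of the series. The other 8 carry RNA of postnatal day 1 mouse cortex, 5 from the first site and 3 from site 2. The cortex pool held 19 mice per the first-site labels, and its strain is C57/B6 there but Swiss-Webster in the design text, a conflict that is not settled here. Every one of the 12422 probe sets that is not an array control, out of 12488 on the array, entered the comparison. Per the labels, the retinas came from a pool of 350 adult C57/B6 mice, and about 10 µg of total RNA was made into biotin-labelled cRNA for each array. The labels name no genotype, treatment or sex. The site 2 labels call their arrays technical replicates and give no pool details, and the design text describes them as replicates of the same samples, made to assess variation across sites. All p-values below therefore measure the technical spread between arrays, not the spread between animals.

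On this array a probe set is a group of short oligonucleotides chosen mostly from the 3′ part of a sequence record, and a gene can have several probe sets built from different records. Such probe sets can lie on different exons or polyadenylation ends of a gene, so they need not read the same transcripts. The adult retina holds mostly rod photoreceptors, with cones, bipolar, amacrine, horizontal and ganglion neurons and Mueller glia, and its RNA is dominated by photoreceptor transcripts.

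Values are intensities scaled so that the median of each array is 100, and differences are site 2 minus the first site on the log2(scaled intensity + 16) scale, on which the change of a dim probe set comes out too small. The deposited array medians ran from 93.4 to 155.9 at the first site and from 102.5 to 122.2 at site 2. Between 71.0% and 78.8% of probe sets lay above the brightest of 13 control probe sets with no added target. Pearson's r between arrays was 0.983 to 0.992 over the 10 pairs within the first site, 0.990 to 0.991 over the 3 pairs within site 2, and 0.951 to 0.968 over the 15 pairs across sites. The median SD of a probe set was 0.16 over the first-site arrays and 0.14 over the site 2 arrays, while the median absolute site difference was 0.31.

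Many retinal transcripts read differently at the 2 sites, mostly by small amounts, and the brighter ones were more often higher at site 2. Of the 12422 probe sets, 5543 passed the threshold (44.6%), an adjusted p under 0.05 with limma and Benjamini-Hochberg adjustment over all of them. Of these, 3416 were higher at site 2 (27.5%) and 2127 lower (17.1%). Differences of 2-fold or more were seen for 630 called probe sets (5.07%), 368 higher (2.96%) and 262 lower (2.11%). The arrays of the sites did not overlap for 5545 probe sets (44.6%). The fitted differences ran from -4.61 to 3.43 with a median of 0.02, and 70.3% lay within 0.5 of 0. Past 2 on the log2 scale the balance was the other way, with 33 probe sets lower and 14 higher.

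The division into higher and lower calls depends on how the arrays are scaled, as the relation to intensity shows. Scaling to a trimmed mean, which follows the bright probe sets, shifted the median by -0.13 and turned the majority, with 2362 higher and 3230 lower calls. Without scaling there were 1248 and 1268. After quantile normalization they numbered 2766 and 2353, and after a cyclic loess, which takes out the trend with intensity, 2700 and 2483.

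**Figure D1:**
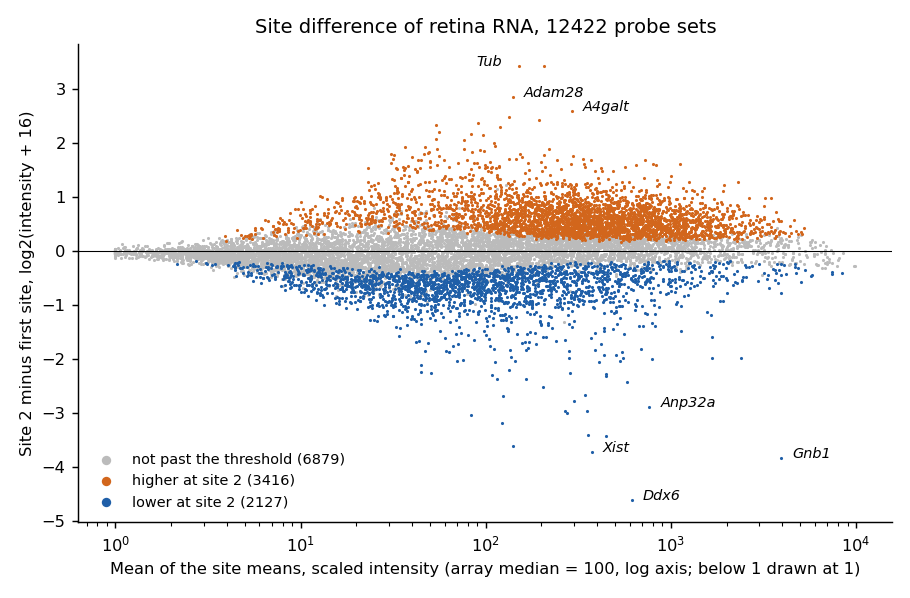
Site 2 minus first site on the log2(scaled intensity + 16) scale against the mean of the site means (log axis) for 12422 probe sets of retina RNA. The 3416 probe sets higher at site 2 (orange) are most frequent at higher intensity, and the 2127 lower ones (blue) reach into the dim range. Ddx6 (-4.61) lies farthest below 0 and Tub farthest above it. The place of Tub is not exact, since its first-site arrays are all at or under the brightest no-target control.

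The strongest loss of signal at site 2 was seen for Ddx6, an RNA helicase of processing bodies. Its probe set 93964_s_at had scaled intensities of 1198, 1320, 1056, 1420 and 995 on the first-site arrays and of 45.1, 28.6 and 27.8 on the site 2 arrays. The sites were far apart, with no overlap, and the difference was -4.61 ± 0.14 (SE; limma adjusted p = 2.3e-08). The probe set 93965_r_at, made from the same sequence record, gave 662 ± 66.2 (SD, n = 5) and 48.1 ± 3.24 (SD, n = 3), a difference of -3.40 ± 0.09. The remaining Ddx6 probe set, 96731_at, made from another record, was lower by much less, with 874 ± 94.2 against 424 ± 60.6 and a difference of -1.02 ± 0.11 (limma adjusted p = 6.2e-05).

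Gnb1, the beta subunit of rod transducin and of other G proteins, was lower at site 2 on all 3 of its probe sets. On 97458_at the arrays read 6102, 8607, 5813, 8911 and 7592 at the first site and 457, 597 and 459 at site 2, and the difference was -3.82 ± 0.16 (limma adjusted p = 1.4e-07). This was the brightest probe set among the 12 largest losses. On 94853_at the difference was -0.84 ± 0.06 and on 94854_g_at it was -1.42 ± 0.24, so the size of the loss differed widely between probe sets of the gene.

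Xist, the noncoding RNA of X inactivation, read 671, 819, 718, 740 and 575 at the first site and 59.8, 24.9 and 36.9 at site 2. No site 2 array came near the first-site arrays (difference -3.71 ± 0.18, limma adjusted p = 4.1e-07). Med1, a subunit of the Mediator complex that links transcription factors to RNA polymerase II, fell from 488, 572, 530, 501 and 416 to 61.9, 54.4 and 33.4 (-2.99 ± 0.15, limma adjusted p = 5e-07). Ago2, the Argonaute protein that cleaves small RNA targets, had 638 ± 54.6 at the first site and 67.8 ± 6.78 at site 2 (-2.96 ± 0.09). Akap9, a scaffold that anchors protein kinase A at the Golgi and centrosome, was at least 9.16-fold lower, since all its site 2 arrays were at or under the brightest no-target control. A fold given as "at least" sets the dim values to that level.

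For 3 other genes a strong loss on 1 probe set stood beside little or no difference on another. Wnk1, a kinase that controls ion transporters, was at least 15.8-fold lower on 161270_i_at, and on 160739_at it read 241, 227, 264, 213 and 217 against 3.19, 13 and 21.2 (-3.17 ± 0.19), with 2 of 3 site 2 arrays at or under the brightest no-target control. Its remaining probe set, 94003_at, had 940 ± 98.6 and 1126 ± 105, a difference of 0.26 ± 0.10 that missed the threshold (limma adjusted p = 0.053) and passed it without retina replicate 2 of site 2 (0.34). Pdpk1, the kinase that activates Akt, read 466, 503, 497, 560 and 417 against 42.2, 51.8 and 53.0 on 102063_at (-2.96 ± 0.11). On 160578_at it had 845 ± 76.5 and 796 ± 50.7 (-0.08 ± 0.08, limma adjusted p = 0.45). Anp32a, an acidic nuclear phosphoprotein, had 1360 ± 77.0 and 171 ± 17.2 on 93372_at (-2.88 ± 0.08) but 2941 ± 352 and 2958 ± 257 on 104390_at (0.01 ± 0.11, limma adjusted p = 0.93).

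Sp4, a zinc finger transcription factor of neurons, was lower on all 3 probe sets. The differences were -2.77 ± 0.12 on 92991_at, -1.27 ± 0.15 on 92993_r_at and -0.94 ± 0.12 on 92992_i_at. The 12 largest losses had limma adjusted p between 1.6e-08 and 7.4e-06, and the choice of these probe sets required 1 gene symbol and arrays that do not overlap. The requirement of a symbol left out 160614_at among the losses (-3.415) and 162030_r_at among the gains (3.423), both unnamed.

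The largest fitted gain was that of Tub, the tubby gene whose loss in mice causes degeneration of the retina. On 98805_at the first-site arrays read 16.5, 8.22, 18.5, 3.74 and 18.4, all at or under the brightest no-target control, and the site 2 arrays read 297, 266 and 309. It was at least 12.1-fold higher at site 2 (limma adjusted p = 1.7e-06). On 98806_s_at, made from another record, Tub had 158 ± 13.7 and 332 ± 38.9, a difference of 1.00 ± 0.10.

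Adam28, A4galt, Mgat3 and Smyd2 were among the 12 named gains. Adam28, a membrane metalloprotease, read 19.7, 20.6, 25.9, 18 and 24.4 at the first site and 218, 270 and 288 at site 2 (2.86 ± 0.14, limma adjusted p = 4.6e-07), with 3 of 5 first-site arrays at or under the brightest no-target control. A4galt, a galactosyltransferase that makes globo-series glycolipids, read 74.9, 95.8, 90.4, 88.6 and 26.6 against 525, 529 and 473 (2.60 ± 0.28). First-site replicate 5 was the low array here, and the sites did not overlap for either gene. Mgat3, which adds the bisecting sugar of N-glycans, was at least 4.24-fold higher. Smyd2, a lysine methyltransferase, had 24.3 ± 2.6 and 169 ± 65.7 on 160794_at (2.15 ± 0.20) but 59.7 ± 8.25 and 56.2 ± 0.668 on 162269_at (-0.06 ± 0.14, limma adjusted p = 0.74). On 160794_at 2 of 5 first-site arrays were at or under the brightest no-target control.

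Gna11, Plekho1, Zfp36l2, Pip5k1c, Cyth3 and Eps15l1 were among the others. Gna11, a G protein alpha subunit of the Gq family, read 53.0, 46.2, 50.2, 60.1 and 43.1 against 300, 348 and 370 on 103411_at (2.42 ± 0.12), and 102196_at gave 0.70 ± 0.12. Plekho1, a protein with a lipid-binding pleckstrin homology domain, was higher on 3 of 3 probe sets, by 2.36 ± 0.14 on 95151_at, at least 3.54-fold on 95150_at and by 0.61 ± 0.11 on 95152_g_at. Zfp36l2, which destabilises mRNAs, was higher on 3 of 3, at least 4.11-fold on 93943_f_at, by 1.23 ± 0.28 on 93944_r_at and by 0.81 ± 0.09 on 160273_at. Pip5k1c, a lipid kinase used at synapses, had 29.8 ± 6.19 and 208 ± 33.2 (2.29 ± 0.16). Cyth3, an exchange factor for ARF proteins, was higher by 2.16 ± 0.21 on 103434_at, and its other probe set gave 0.36 ± 0.12, a call lost without site 2 replicate 2 (0.34) or 3 (0.24). Eps15l1, an endocytic adaptor, was at least 3.97-fold higher. On Plekho1 95151_at and Cyth3 103434_at 4 of 5 first-site arrays were at or under the brightest no-target control, so these sizes are not exact. The 12 gains had limma adjusted p between 4.6e-07 and 6.3e-05.

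**Figure D2:**
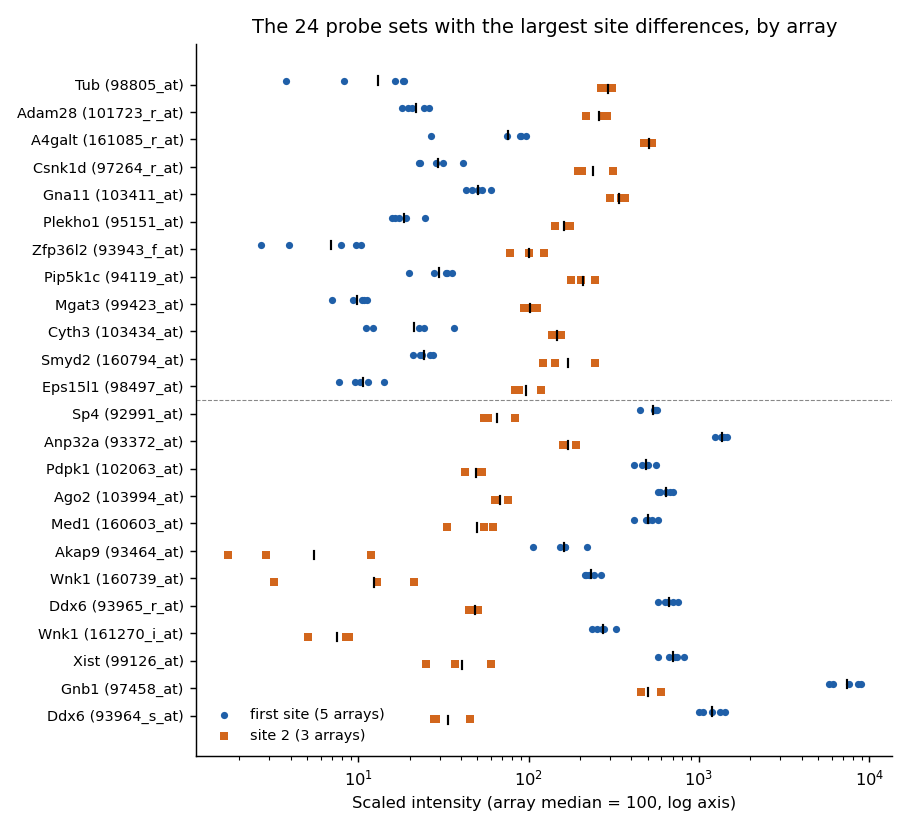
Scaled intensity (log axis) of the 24 probe sets with 1 gene symbol and the largest site differences, 12 higher (above the dashed line) and 12 lower at site 2, on each first-site array (circles) and site 2 array (squares), with bars at the site means. No first-site array overlaps a site 2 array in these rows, which the choice required, and Tub moves from 3.74 to 18.5 up to 266 to 309.

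Probe sets of the same gene often differed from each other. Of the 8251 genes with a single symbol, 2073 had 2 or more probe sets, 4655 in all. For 137 of them every probe set was higher at site 2 and for 64 every one was lower. In 528 genes some were higher and the rest not called, in 482 some were lower and the rest not called, and in 579 none was called. In 283 genes at least 1 probe set was higher and another lower. Among the 568 genes with at least 2 called probe sets, 285 had all their calls in one direction.

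Called probe sets of a gene agreed in direction more often where they shared a sequence record. Whether such probe sets share oligonucleotides was not examined, since no probe sequences were given. Over 341 pairs of probe sets of a gene made from the same record, Pearson's r of the site differences was 0.454 and 58.9% had the same sign. Where both were called, 58 pairs agreed in direction and 14 did not. Over 2104 pairs from different records r was 0.128 and 54.1% had the same sign. Of their called pairs, 246 had the same direction (53.25%) and 216 opposite ones. Since 61.6% of all calls were higher, called probe sets of different genes would often agree too, and such pairs were not counted. Over 866 pairs for which the annotation gives no record, r was 0.017, with 99 called pairs in the same and 104 in opposite directions. Among pairs in the upper 2 of 5 equal bins of intensity the numbers were 26 and 8 for the same record (r = 0.578) and 107 and 68 for different records (r = 0.151), while the shares with the same sign were close, 56.2% and 55.3%. These are descriptions across pairs that share the 8 arrays, and pairs of a gene are not independent.

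Where 1 probe set of a gene was called at least 2-fold, its others were counted by record. Of 296 probe sets from a different record that accompanied such a probe set, 99 were called in its direction, 36 of them at least 2-fold, 143 were not called and 54 were called the opposite way, 12 of them at least 2-fold. Of 54 from the same record, 30 were called in its direction, 12 of them at least 2-fold, 20 were not called and 4 went the opposite way.

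The site difference of a probe set was closer to that of the same probe set in cortex RNA than to that of another probe set of its gene in retina. Over the 4655 probe sets of these genes, r between the retina and the cortex site difference was 0.649 and 74.4% had the same sign. The tissues share no array, only the sites and the array type. The test of such a difference between correlations was not made, and the r values are set side by side as descriptions.

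**Figure D3:**
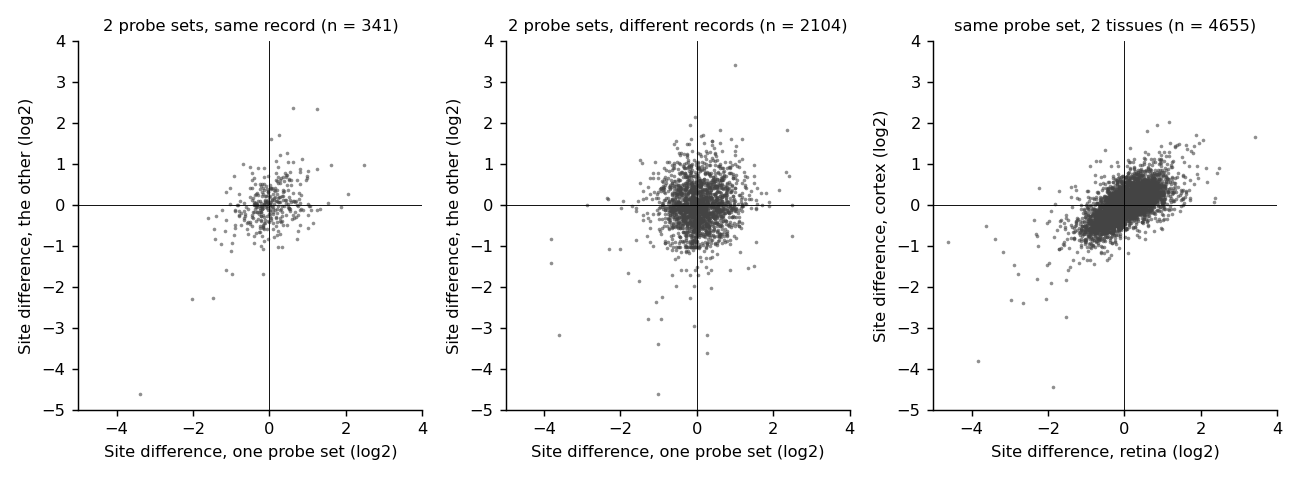
Site difference (site 2 minus first site, log2 scale) of a probe set against that of another probe set of the same gene, for 341 pairs from the same sequence record (left) and 2104 pairs from different records (middle), and of 4655 probe sets in retina against the same probe set in cortex (right). The points lie along the diagonal most closely on the right (r = 0.649) and form a round cloud in the middle (r = 0.128).

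The genes with the widest disagreement included Klf9, a transcription factor induced by hormones. On 93528_s_at it read 1595, 1816, 1594, 1978 and 1424 at the first site and 545, 657 and 570 at site 2, while on 93527_at it read 279, 279, 283, 228 and 225 against 598, 561 and 557. The sites were apart on both, in opposite directions, with differences of -1.48 ± 0.11 and 1.10 ± 0.10 (limma adjusted p = 8e-06 and 2.1e-05).

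Fancc, of the Fanconi anaemia DNA repair pathway, was higher on 160895_at, with 59.2, 58.7, 60.8, 74.4 and 63.6 against 260, 252 and 234 (1.74 ± 0.11). On 161709_at, whose site 2 arrays were at or under the brightest no-target control, it was called lower (limma adjusted p = 0.0071), although the sites overlapped there. Eif4ebp2, a repressor of translation initiation, was at least 2.51-fold higher on 96729_at and higher by 0.55 ± 0.09 on 101072_at, and lower on 94353_at (-1.48 ± 0.17). Matr3, a nuclear matrix protein, was higher on 96011_at (1.04 ± 0.15) and lower on 96012_f_at (-0.59 ± 0.08) and 96013_r_at (-1.44 ± 0.15), which share a record.

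Csnk1d, casein kinase 1 delta, which phosphorylates clock proteins, had 4 probe sets. It was higher on 97264_r_at (2.48 ± 0.19) and 97263_s_at (0.98 ± 0.15), which share a record, and lower on 162001_f_at (-0.77 ± 0.14). On 97264_r_at 2 of 5 first-site arrays were at or under the brightest no-target control. The brightest Csnk1d probe set, 97262_at, had 1195 ± 58.9 and 1194 ± 67.5 (0.00 ± 0.07, limma adjusted p = 0.99). Bphl, a hydrolase, was higher on 96231_at (0.85 ± 0.10) and lower on 161851_r_at (-1.58 ± 0.19) and 161769_r_at (-0.85 ± 0.17), and 2 others were not called. Nsmf, a synapse-to-nucleus messenger protein, gave 1.34 ± 0.29 and -1.53 ± 0.16. Uhmk1, a kinase with an RNA-binding motif, gave 1.55 ± 0.25 (4 of 5 first-site arrays at or under the brightest no-target control), -0.91 ± 0.18 and, on its brightest probe set, -0.10 ± 0.09 (limma adjusted p = 0.35).

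Among genes whose probe sets all moved one way, Dusp8, a phosphatase of MAP kinases, was lower on both, with differences of -2.66 ± 0.12 and -2.04 ± 0.09. On 92362_at it read 830, 954, 842, 937 and 775 against 182, 196 and 219. Tenm4, a teneurin adhesion protein, was lower on 3 of 3 probe sets (-2.30 ± 0.10, -2.02 ± 0.11 and -1.07 ± 0.09), from 2 records. Aqp4, the water channel of Mueller glia and astrocytes, read 1106, 1128, 1111, 1076 and 996 against 292, 291 and 307 on 102704_at (-1.81 ± 0.06). Its other probe set, from another record, gave -1.65 ± 0.10, so both placed site 2 well under the first site.

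Actb, cytoplasmic actin, was lower on 101578_f_at (866 ± 153 against 223 ± 15.0, -1.86 ± 0.13) and on 95705_s_at (839 ± 292 against 272 ± 47.7, -1.52 ± 0.23). Prp2, a salivary proline-rich protein, was lower on both probe sets of its single record (-2.28 ± 0.32 and -1.48 ± 0.43), and the second call was lost without site 2 replicate 1 (-1.44) or 2 (-1.39). Rab7, a small GTPase of late endosomes, was higher by 1.61 ± 0.14 and 1.18 ± 0.13, from different records. Kif1b, a kinesin that carries mitochondria and vesicles along axons, was higher by 1.11 ± 0.16 and 1.07 ± 0.21. On its probe set 94379_at 2 of 5 first-site arrays were at or under the brightest no-target control. Adprhl2, an ADP-ribose hydrolase, was higher by 1.45 ± 0.42 and 1.02 ± 0.17, and the first call was lost without site 2 replicate 2 (1.32) or 3 (1.37).

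The kind of probe set went with the direction. Probe sets with the endings _r_at (some design rules dropped), _f_at (probes matching a family of sequences) and _i_at (fewer probes than usual) were more often lower at site 2. Of 901 _r_at probe sets 317 were lower and 86 higher, with a median of -0.22. Of 1075 _f_at probe sets 295 were lower and 114 higher (-0.14), and of 256 _i_at probe sets 77 were lower and 32 higher (-0.13). Of 9614 plain _at probe sets 1346 were lower and 2985 higher, with a median of 0.07. The classes differ in brightness, with median scaled intensities of 30.5, 69.1, 40.1 and 120 in this order. After the cyclic loess the medians were -0.18, -0.14, -0.10 and 0.03.

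In 5 equal bins of mean intensity, from dim to bright, the median difference was -0.07, -0.18, -0.01, 0.25 and 0.23. In the brightest bin 1198 of 2485 probe sets were higher and 339 lower, while in the next to dimmest bin 321 of 2484 were higher and 571 lower. The cyclic loess left the medians between -0.06 and 0.04, by its construction. By the length of the gene on the RefSeq genome the medians were 0.02 in the shortest of 4 equal bins and 0.11, 0.10 and 0.11 in the next 3. The shortest bin was also the dimmest, with a median scaled intensity of 113 against 170, 190 and 162. After the cyclic loess the medians by length were -0.003, 0.021, 0.017 and 0.024. Of 10613 probe sets of protein-coding genes 3134 were higher and 1733 lower. Of 64 for long noncoding RNAs 13 were higher and 15 lower, of 43 for immunoglobulin and T cell receptor variable segments 0 were higher and 12 lower, and of 28 for their constant regions 0 and 7. The segment and constant region classes were dim, with median scaled intensities of 20.1 and 13.4.

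The lists below take each gene at its brightest probe set. Some of these genes have other probe sets, mostly not given here, which can differ from the brightest in size and direction as described above. Over all 8251 genes, 3874 were called (47.0%), 2611 higher (31.6%) and 1263 lower (15.3%), with a median of 0.08. Since both sites are described as measuring the same samples, a list named for a cell type describes the signal of its genes and is no count of cells.

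Rod phototransduction genes, which turn photon capture into a change of membrane current, were bright at both sites. Of 13 genes 2 were higher and 3 lower, among them Gnb1. Their median difference was -0.17, at a median scaled intensity of 4817. After the cyclic loess 2 were higher and 9 lower, and after the trimmed mean scaling 0 and 9. Gnat1, the rod transducin alpha subunit, read 9777, 10336, 10988, 10218 and 11676 at the first site and 7727, 8970 and 9755 at site 2, with no overlap but a difference of -0.27 ± 0.12 that missed the threshold (limma adjusted p = 0.085). Pde6a, the alpha subunit of the rod phosphodiesterase, read 3182, 2959, 3059, 2407 and 2678 against 2068, 1893 and 2152 (-0.48 ± 0.10, limma adjusted p = 0.0031). Gucy2e, a guanylate cyclase that restores the second messenger, was higher by 0.64 ± 0.17, a call lost without site 2 replicate 1 (0.50). Rgs9, which shuts off transducin, gave 0.47 ± 0.17 with overlapping arrays (limma adjusted p = 0.045), and lost the call when any 1 of 6 arrays (replicates 1 to 4 of the first site and 1 and 3 of site 2) was left out, with differences from 0.38 to 0.51.

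Transport and transcription genes of photoreceptors went both ways. Of 13 genes for outer segment structure and ciliary transport 5 were higher and 2 lower (median 0.07), whereas the trimmed mean scaling gave 3 and 5. Pde6d, a carrier of lipid-modified photoreceptor proteins, read 1017, 1122, 1041, 1103 and 904 against 1477, 1713 and 1830 (0.68 ± 0.09). Kif3a, a motor of the connecting cilium, was higher by 0.71 ± 0.10, and Rom1, a disc rim protein, was lower (5361 ± 285 against 4061 ± 158, -0.40 ± 0.08). Of 6 photoreceptor transcription factors 2 were higher and 2 lower. Esrrb, a nuclear receptor of rods, was higher by 1.77 ± 0.21 and Crx, the homeobox factor of all photoreceptors, by 0.51 ± 0.10. Mef2c was lower (-0.93 ± 0.10) and so was Neurod1 (-0.54 ± 0.10).

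Cone genes read higher at site 2 where they were called. Of 7 genes 4 were higher and 0 lower (median 0.64), and the same 4 to 0 count was found under the trimmed mean, quantile and cyclic loess settings. Opn1sw, the short-wave cone opsin, read 1347, 1272, 1352, 1107 and 1340 at the first site and 2226, 2378 and 2240 at site 2 (0.82 ± 0.08, limma adjusted p = 4.1e-05). Opn1mw, the middle-wave opsin, had 792 ± 24 and 1247 ± 144 (0.64 ± 0.08). Cnga3, the cone channel subunit, and Rxrg, a nuclear receptor of cones, were dim, at 16.1 ± 3.85 against 38.4 ± 13.2 (0.74 ± 0.17) and 15.5 ± 8.52 against 60.3 ± 16.8 (1.29 ± 0.22). For each of them 4 of 5 first-site arrays were at or under the brightest no-target control, so these 2 sizes are not exact. Thrb, the thyroid hormone receptor that specifies middle-wave cones, differed by -0.08 ± 0.19 (limma adjusted p = 0.76).

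The few called genes of the inner retinal lists differed in direction between lists. Of 6 bipolar cell genes 0 were higher and 3 lower, with a median of -0.27. Car8, an inactive relative of carbonic anhydrases, read 712, 582, 715, 655 and 595 against 205, 232 and 231 (-1.48 ± 0.09, limma adjusted p = 2e-06). Trpm1, the channel that depolarises ON bipolar cells, was lower (-0.62 ± 0.12) and so was Gnao1, the G protein alpha subunit upstream of it (-0.53 ± 0.10). Pcp2 had 693 ± 97.8 and 886 ± 286 (0.30 ± 0.20, limma adjusted p = 0.23) and passed the threshold without site 2 replicate 1 (0.60).

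Of 10 ganglion cell genes 5 were higher and 0 lower, with a median of 0.31 that fell to 0.08 under the cyclic loess. Nefl, the light neurofilament subunit, read 772, 607, 681, 598 and 707 against 949, 1129 and 1353 (0.74 ± 0.12). Rbpms, an RNA-binding protein that marks ganglion cells, was higher by 0.69 ± 0.09 and Thy1, a surface protein of ganglion cells and other neurons, by 0.53 ± 0.10. Gap43, of growth cones, gave 0.50 ± 0.14 and lost the call without site 2 replicate 2 (0.42) and under the cyclic loess (0.24). Ebf1 differed by -0.21 ± 0.13 (limma adjusted p = 0.23).

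Amacrine and horizontal cell genes split evenly, with 5 of 18 higher and 5 lower. Slc18a3, the acetylcholine transporter of starburst amacrine vesicles, was at least 4.14-fold higher, and Gad2, which makes GABA, was higher by 1.04 ± 0.17. The transcription factors Tfap2b (284 ± 21.9 against 107 ± 22.9, -1.30 ± 0.12) and Lhx1 (-0.86 ± 0.15) were lower. Among 13 Mueller glia genes 2 were higher and 2 lower. Beside the loss of Aqp4, Glul, the glutamine synthetase that clears glutamate, read 1492, 1667, 1442, 1812 and 1423 against 1121, 1031 and 787 (-0.68 ± 0.12). Dkk3, a secreted glycoprotein, was higher by 0.83 ± 0.09 and Clu, the chaperone clusterin, by 0.45 ± 0.09.

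Lists for lens, pigment epithelium, vessels, microglia, astrocytes, oligodendrocytes, erythroid cells and muscle had shares of called genes under that of all genes. Of 11 lens genes 5 were higher and 0 lower, with a median of 0.31 that was 0.04 after the cyclic loess. The crystallin gene Cryba1 read 220, 248, 200, 192 and 247 against 401, 494 and 647 (1.14 ± 0.14) and Crygc was higher by 0.79 ± 0.16. For pigment epithelium 1 of 9 genes was higher and 1 lower, for endothelial and mural cells 4 of 18 and 1, for microglia and macrophages 4 of 17 and 3, and for astrocytes 3 of 11 and 1. For oligodendrocytes 0 of 9 were higher and 2 lower, for erythroid cells 0 of 9 and 3, and for skeletal muscle 1 of 17 and 3.

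Mitochondrial ribosome, respiration, proteasome and polymerase genes were more often called higher at site 2 than lower. Of 61 genes for mitochondrial ribosomal proteins 37 were higher and 5 lower (median 0.39), at a median scaled intensity of 305. Mrpl41 read 231, 253, 237, 263 and 251 at the first site and 391, 514 and 468 at site 2 (0.84 ± 0.09). Mrpl50 was higher by 0.97 ± 0.15, Mrpl40 by 0.82 ± 0.09 and Mrpl4 by 0.80 ± 0.09, whereas Mrpl3 was lower (434 ± 17.7 against 250 ± 27.4, -0.76 ± 0.08). Among the 73 genes of oxidative phosphorylation, 33 rose and 8 fell (median 0.23). Ndufa13, of complex I, read 642, 599, 652, 605 and 584 against 1011, 1530 and 1143 (0.96 ± 0.11). The ATP synthase genes Atp5o and Atp5e were higher by 0.88 ± 0.13 and 0.87 ± 0.14, and Cox8c, a testis form of a cytochrome oxidase subunit, was lower (-0.87 ± 0.08).

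Of 46 proteasome genes 27 were higher and 3 lower, with a median of 0.34. Psme3, a proteasome activator of the nucleus, read 442, 386, 329, 385 and 336 against 865, 839 and 898 (1.18 ± 0.09). Psmd5 was higher by 1.03 ± 0.19 and Psmd7, of the regulatory particle, by 0.84 ± 0.12, while the assembly chaperone Psmg3 was lower (-0.87 ± 0.14). Of 42 genes for Mediator and RNA polymerase II 28 were higher and 6 lower, with a median of 0.39. Polr2a, the largest polymerase subunit, read 726, 752, 651, 870 and 605 against 1444, 1890 and 2018 (1.28 ± 0.13). Its other probe set, 103055_r_at, was chosen after its values were seen and gave -0.47 ± 0.08. Polr2i was higher by 1.03 ± 0.21, Med1 was lower as given above, and Taf15, a TAF-related RNA-binding protein, was at least 2.26-fold lower.

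The balance of these lists moved with the scaling, and their median scaled intensities, from 305 to 1238, lie above that of all genes, 158. Under the cyclic loess mitochondrial ribosomal proteins stood at 26 higher and 9 lower (median 0.20), proteasome genes at 16 and 10 (0.12), polymerase and Mediator genes at 16 and 10 (0.18) and oxidative phosphorylation at 25 and 15 (0.07). Of 53 translation factors 25 were higher (47.2%) and 7 lower (13.2%), against 15 and 10 after the cyclic loess. In the next to brightest intensity bin 46.3% of probe sets were higher and 16.5% lower. The direction turned for 51 splicing factors and hnRNP genes, with 21 higher and 9 lower, and 11 and 16 after the cyclic loess. Sf3b1, a core spliceosome subunit, read 824, 861, 901, 733 and 742 against 205, 219 and 180 (-1.93 ± 0.09), Prpf19 was lower (-0.94 ± 0.11) and Sf3a1 higher by 0.81 ± 0.10. The 35 genes for proteins of the cytosolic ribosome included 12 higher and 6 lower (median 0.08), with 7 and 9 under the trimmed mean scaling. Rps19 was higher by 0.96 ± 0.19 and Rpl37a lower (-0.53 ± 0.10), and Rps4l, an annotated pseudogene that can share probes with its parent, gave 0.70 ± 0.09.

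Synaptic genes were called higher more often than lower, as all genes were, while channel and receptor genes went both ways. Of 41 synaptic vesicle genes 17 were higher (41.5%) and 4 lower (9.76%), against 31.6% and 15.3% of all genes. Their median scaled intensity was 269. In the next to brightest of the 5 intensity bins 46.3% of probe sets were higher and 16.5% lower. Stx3, the syntaxin of ribbon synapses, read 675, 462, 569, 388 and 669 against 1648, 1726 and 1695 (1.62 ± 0.16) and Syt9, a calcium sensor of release, was higher by 1.63 ± 0.15. Cplx2, a complexin of conventional synapses, read 502, 678, 499, 789 and 599 against 186, 156 and 139 (-1.82 ± 0.15), opposite to the list's median of 0.23. Of 42 potassium channel genes 8 were higher and 7 lower. Kcna1, an axonal potassium channel, read 208, 237, 240, 212 and 203 against 39.1, 55.4 and 57.4 (-1.83 ± 0.12), and Kcnma1, the large-conductance calcium-activated channel, fell from 972 ± 62.4 to 365 ± 40.8 (-1.38 ± 0.08). Kcnn4 was at least 4.29-fold lower and Kcne1l higher by 1.31 ± 0.25. Of 52 neurotransmitter receptor genes 11 were higher and 8 lower, with Grik5 at 1.04 ± 0.11, Gria1 at -1.36 ± 0.10 and Gabra2 at -1.14 ± 0.12.

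Of 15 circadian clock genes 6 were higher and 2 lower (median 0.23). Cry2, a repressor of the clock, was higher by 1.14 ± 0.20, Nr1d2, a nuclear receptor of the clock's second loop, by 0.99 ± 0.10 and Tef, an output factor, by 0.96 ± 0.14, while Per3 was lower (-0.84 ± 0.10). Of 7 noncoding RNA genes 3 were higher (Meg3 at 0.62 ± 0.07, Snhg6 at 0.57 ± 0.07 and Snhg11 at 0.52 ± 0.08) and Xist was lower. The other 3 were not called.

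Lists of genes that are mostly expressed in other tissues were more often called lower at site 2 than higher, at low intensity. In the next to dimmest intensity bin 23.0% of all probe sets were lower and 12.9% higher (median -0.18, median scaled intensity 29.5). Of 61 keratin and epidermal genes 3 were higher and 24 lower (39.3%, median -0.34, median scaled intensity 48.3). Krtap5-1, a hair protein gene, read 962, 1010, 901, 1046 and 1132 against 417, 492 and 430 (-1.15 ± 0.09), whereas Krt8, a keratin of simple epithelia, was at least 2.53-fold higher. Of 27 immunoglobulin genes 0 were higher and 12 lower (44.4%, median -0.31, intensity 35.4), with the variable segment Ighv5-12 at 279 ± 40.5 and 113 ± 18.4 (-1.19 ± 0.13). Of 40 cytochrome P450 genes 1 was higher and 11 lower (27.5%, median -0.29, intensity 22.0). For 74 homeobox genes the counts were 4 and 15 (20.3% lower, -0.17, intensity 22.1). For 18 liver genes they were 0 and 5 (27.8% lower, -0.15, intensity 17.6), and for 17 germ cell genes 1 and 6 (35.3% lower, -0.21, intensity 6.90). The shares called lower for cytochrome P450, homeobox and liver genes were near the 23.0% of the next to dimmest bin. Alb, serum albumin, had 53.8 ± 3.59 and 25.0 ± 4.8 (-0.78 ± 0.13), with 1 of 3 site 2 arrays at or under the brightest no-target control. Tnp1, a sperm nuclear protein, went against its list at 161 ± 23.9 and 518 ± 2.88 (1.60 ± 0.11). The cyclic loess left the keratin, immunoglobulin and cytochrome P450 medians at -0.25, -0.19 and -0.18.

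The remaining lists showed smaller or mixed differences. Of 57 chaperone genes 20 were higher and 7 lower (13 and 15 under the cyclic loess), and of 18 glycolysis genes 6 and 1 (4 and 5). Of 89 zinc finger protein genes 34 were higher and 6 lower, against 21 and 19 with the trimmed mean scaling, and of 151 solute carriers 43 and 28, against 29 and 38. Of 42 genes of antigen presentation and interferon response 14 were higher and 5 lower, of 40 cytoskeleton genes 11 and 10, and of 23 immediate early genes 5 and 2. Of 60 cytokine genes 4 were higher and 8 lower, of 27 proliferation genes 5 and 6, of 8 histone genes 3 and 1, and of 64 genes known by RIKEN clone names 24 and 9. No probe set was matched to a mitochondrially encoded gene.

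**Figure D4:**
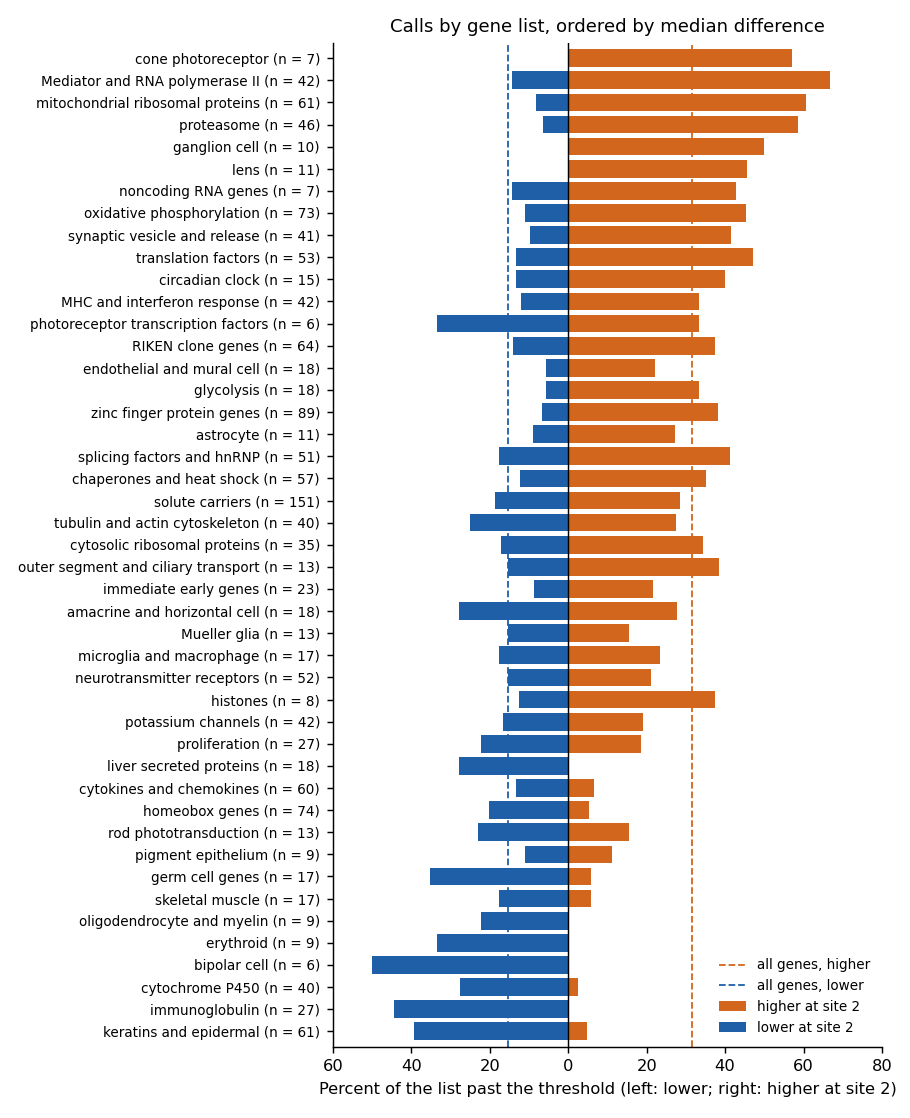
Percent of each gene list called lower (left) and higher (right) at site 2, by the brightest probe set of each gene, ordered from the lowest median (bottom) to the highest (top). Dashed lines mark all genes, 31.6% higher and 15.3% lower. Keratins at 24 of 61 lower and Mediator and RNA polymerase II genes at 28 of 42 higher stand near the ends.

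The cortex arrays showed much of the same site difference. Over 12422 probe sets the site differences of retina and cortex had r = 0.628 and the same sign for 73.7%. Of the 5543 probe sets called in retina, 85.0% had the same sign in cortex, where 930 were also called in that direction and 14 in the opposite one. In cortex 1194 probe sets were called (9.61%), 709 higher (5.71%) and 485 lower (3.90%). Leaving out 1 cortex array moved this count, to 513, 634, 509 and 596 without first-site replicates 1 to 4, to 839 without replicate 5, and to 445, 2829 and 635 without site 2 replicates 1, 2 and 3. Cortex replicate 2 of site 2 had a deposited median of 45.7, against 139.1 and 216 for the other 2. Without it r was 0.718, 88.9% of the called probe sets had the same sign, and 2114 were called in the same and 41 in the opposite direction. Gnb1 97458_at, Adam28 and A4galt moved in cortex as they did in retina, by -3.81, 2.94 and 2.18.

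For 525 probe sets (4.23%) the retina site difference itself differed from that in cortex (limma interaction, adjusted p under 0.05), the retina value being above the cortex value for 345 (2.78%) and under it for 180 (1.45%). The count was 274 without retina replicate 2 of site 2, 285 without its replicate 3, and 804 without cortex replicate 1 of site 2. Kcna1 moved in opposite directions, by -1.83 in retina and 1.38 in cortex (interaction -3.21, limma adjusted p = 5.6e-06). Ddx6 93964_s_at was lower in cortex by far less than in retina (-0.90, interaction -3.71), and Med1 differed by 0.19 in cortex (interaction -3.18). Kcnma1 was higher in cortex at site 2 (0.88, interaction -2.26) and Sf3b1 gave -0.13 there (interaction -1.79). In the other direction, Actb 101578_f_at was lower in cortex by more than in retina (-4.46, interaction 2.59). Zfp36l2 93943_f_at, Plekho1 95151_at, Esrrb and Avpi1 had cortex site differences of 0.09, 0.18, -0.17 and 0.02, with interactions of 2.25, 2.19, 1.95 and 1.87. Avpi1, a gene induced by vasopressin, was higher by 1.89 ± 0.19 in retina, with 3 of 5 first-site arrays at or under the brightest no-target control. Of the 12 largest losses in retina 11 had the same sign in cortex and 11 passed the interaction test, and of the 12 largest gains 12 and 3. Both groups were chosen for large retina differences, which by itself favours interaction calls.

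Control probe sets, which are not part of the tests, differed between the sites too. The 5′ probe set for 18S ribosomal RNA read 4305, 6095, 332, 5062 and 3428 on the first-site retina arrays and 14.4, 14 and 2.34 at site 2, and its 3′ probe set had 2032 ± 1010 and 60.5 ± 15.0. The 3′ probe set of ThrX, a bacterial transcript used as a spike, read 163, 695, 1888, 5201 and 8567 at the first site and 4.75, 4.32 and 4.20 at site 2. TrpnX, another such spike, read 203, 947, 1993, 4919 and 9118 against 1.23, 1.44 and 1.56. Both spikes were above the brightest no-target control on every first-site array, over a wide range, and under it on every site 2 array. The cortex arrays showed the same contrast, with ThrX at 108 to 7578 at the first site and 2.73 to 4.16 at site 2.

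The 3′ to 5′ ratio, a sign of RNA length, overlapped between the sites for Actb and Gapdh. This ratio was 1.5 to 1.79 at the first site and 1.53 to 1.77 at site 2 for Actb, and 0.82 to 0.95 and 0.86 to 0.93 for Gapdh. For Tfrc it was 2.00 to 3.88 and 3.72 to 6.20, for Pcx it was 2.46 to 4.17 and 1.93 to 2.57, and for the hybridisation spike cre 1.29 to 1.52 and 1.75 to 1.78. The Actb control probe set of the 3′ end had 6837 ± 446 and 3007 ± 250, with no overlap between the sites. The part of these signals in the site differences was not tested.

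**Figure D5:**
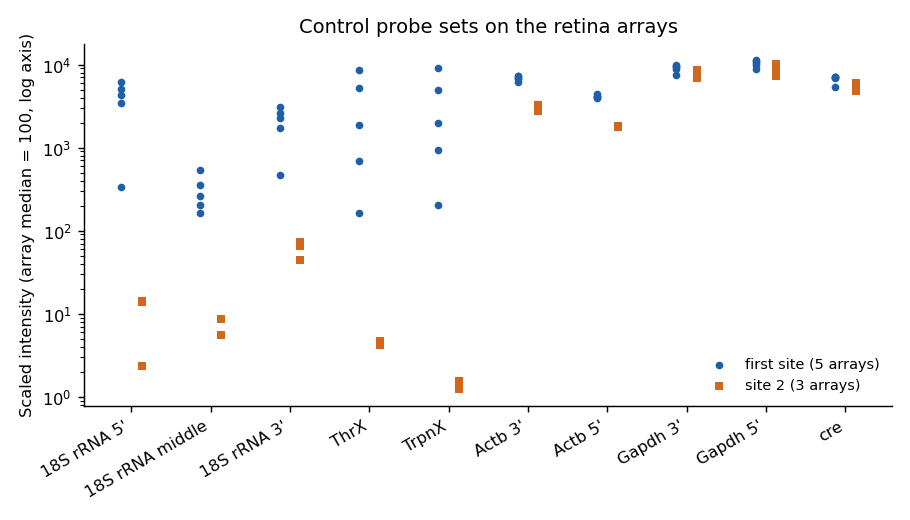
Scaled intensity (log axis) of control probe sets on the 5 first-site retina arrays (circles) and the 3 site 2 arrays (squares). The 18S rRNA and the ThrX and TrpnX spikes are far brighter at the first site, Actb reads 6837 ± 446 and 3007 ± 250 at its 3′ end, and the Gapdh and cre probe sets shown overlap between the sites.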

How the data were processed

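Per the labels, biotin-labelled cRNA of each RNA sample was hybridised to an Affymetrix MG_U74Av2 array. The authors deposited 1 linear intensity per probe set and array, and how probe intensities were summarised and scaled is not given in the sources used here. Each array was divided by its median over non-control probe sets and multiplied by 100, 16 was added and log2 was taken. For the 8 retina arrays the model was lmFit and eBayes with trend, from limma 3.58.1 (R 4.3.3), with Benjamini-Hochberg adjustment over 12422 probe sets and a threshold of 0.05. The code was tested on simulated data. Cortex was fitted likewise, and the interaction on all 16 arrays. Values are site means ± SD (n = 5 and n = 3) and differences ± SE. The number of arrays limits the precision.

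Of the probe sets, 10833 have 1 gene symbol in the platform annotation, 396 several and 1193 none here. Of these, 10817 were matched by Entrez ID to RefSeq symbols (GRCm38.p6). The members and lists were chosen with earlier results of these data known. Named were, among probe sets with 1 symbol, the 12 largest non-overlapping called differences per direction whose brighter site was above the no-target controls, up to 4 members and 1 contrary member per list, 8 genes with opposite calls, 8 with calls in one direction and 5 interactions per direction. Gnat1 and the second Polr2a probe set were added after their values were seen. The level of the no-target controls was set as the bound for dim probe sets after the data were seen. Alternatives changed scaling, pseudocount, filters, arrays and the replicate block.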

Additional observations from a re-analysis of the deposited data

Results flagged for a closer look

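Among the 158 probe sets named in the text, 9 had 1 first-site retina array far from the other 4 (5.7%), and chance gives about 1 in 20. Replicate 5 was the low one for Sp4 92991_at (451.6, the others 546.9 to 563.7), A4galt (26.55, the others 74.94 to 95.84), Rps4l (487.9, the others 597.2 to 643.4) and Polr2i (54.5, the others 106.6 to 119.3). It was the high one for Ighv5-12 (349.5, the others 246.7 to 267.0). Replicate 3 was low for Kcnn4 (50.5, the others 74.09 to 85.4) and Fancc 161709_at (12.4, the others 25.82 to 31.44), and high for Gnb1 94853_at (1641, the others 1464 to 1512). Replicate 4 was high for Bphl 161851_r_at (495.9, the others 250.8 to 285.5).

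For 43 of the 158 named probe sets the retina site difference differed from that in cortex (limma interaction, adjusted p under 0.05). Over all 12422 probe sets the share was 4.23%. Many of the named ones were chosen for a large retina difference or a large interaction, which by itself raises the count. The values below are retina minus cortex on the log2 scale.

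The retina difference was the lower one for the RNA and transcription genes Ddx6 (-3.71 and -2.58), Xist (-2.85), Med1 (-3.18), Ago2 (-1.78), Sf3b1 (-1.79), Prpf19 (-0.70), Anp32a (-1.42), Eif4ebp2 94353_at (-1.11), Klf9 93528_s_at (-0.80), Mef2c (-1.03) and Sp4 (-1.09 and -0.89). It was also lower for the kinases and scaffold Wnk1 (-3.11 and -2.03), Pdpk1 (-0.64) and Akap9 (-2.16). Among channels, receptors and membrane proteins it was lower for Kcna1 (-3.21), Kcnma1 (-2.26), Kcnn4 (-1.37), Gria1 (-0.70), Aqp4 (-1.83 and -1.29), Gnb1 94853_at (-0.74) and Car8 (-1.79).

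The retina difference was the higher one for the signalling genes Gna11 (1.64), Plekho1 (2.19 and 1.33), Zfp36l2 (2.25 and 1.46) and Avpi1 (1.87). It was higher for the retinal and neuronal genes Esrrb (1.95), Slc18a3 (1.83), Grik5 (0.95), Syt9 (1.64) and Rab7 (0.86). It was also higher for Cryba1 (1.23), Crygc (0.84), Rps4l (1.03), Mrpl41 (0.72), Ndufa13 (0.72), Krt8 (1.21) and Actb 101578_f_at (2.59). On this Actb probe set both tissues had a loss, and the smaller one was in retina. The Actb control probe sets had the smaller loss in cortex. For the 3′, 5′ and middle ones it was -1.18, -1.20 and -1.38 in retina and -0.39, -0.48 and -0.34 in cortex.

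Outside the tested probe sets, the ThrX and TrpnX spikes had median scaled intensities of 1888 and 1993 over the first-site retina arrays, above the no-target controls.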

How the results depend on the processing

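The 158 named probe sets were refitted under 21 settings. Of 3276 values, 3187 kept direction and side of the threshold, and 0 changed direction where either fit called the probe set. Values called in neither fit did change direction, with 4 under the cyclic loess and 4 under quantile normalization among them. Of the called probe sets, 22 lost the call under some setting and 6 when 1 array was left out. Without first-site replicate 4, 2 named calls were lost, and without replicate 5, 1 was lost. Calls other than that of Rgs9 therefore also depended on first-site arrays. Leaving out 1 array gave 4346 to 5466 calls in retina, 2748 to 3453 higher and 1596 to 2053 lower, and 593 to 761 of at least 2-fold. It gave 187 to 274 genes with opposite calls, 143 to 195 with all calls one way, 517 to 674 listed genes called, 522 to 671 lower _f_at, _i_at and _r_at probe sets, 445 to 2829 calls in cortex and 274 to 804 interactions. Without first-site replicates 2 and 4 together, an alternative chosen after seeing the data, 5129 were called.

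With no scaling 2516 were called, 1248 higher and 1268 lower, with 72 genes opposite and 63 one way, 258 listed genes, 450 lower _f_at, _i_at and _r_at probe sets, 11 calls in cortex and 34 interactions. The trimmed mean scaling gave 3230 lower. With probe sets above the median signal only, 1140 were lower, 344 at least 2-fold, 167 genes opposite and 362 _f_at, _i_at and _r_at probe sets lower, from fewer probe sets tested. A pseudocount of 1 gave 1411 calls of at least 2-fold and one of 50 gave 293. With plain _at probe sets only, 104 genes were opposite and 114 one way, again from fewer probe sets.

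With the replicate number as a block 3053 were higher and 1741 lower in retina, and 6 were called in cortex. The numbers did not pair the arrays, as deviations of same-numbered retina arrays correlated at -0.018, 0.083 and 0.019. Classes by protein length were not run. Dim probe sets near the no-target controls limit the folds that can be given. For A4galt, Pip5k1c, Syt9, Kcne1l and Nsmf 99557_at 1 of 5 first-site arrays was at or under the brightest no-target control.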

Other observations

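First-site retina replicates 2 and 4 lay together for a group of probe sets. Both were under replicates 1, 3 and 5 for 273 probe sets and above them for 145. These counts require means of the 2 groups of arrays at least 0.5 apart on the log2 scale. Without that limit they were 1298 and 2400. Of the 273, 122 were called higher at site 2 (44.7%, against 27.5% of all probe sets) and 23 lower, with a median difference of 0.39, and of the 145, 18 were higher and 10 lower. The 273 were picked for low values on 2 first-site arrays, which by itself lowers the first-site mean. Hacd3, an enzyme of very-long-chain fatty acid synthesis, read 223, 112, 277, 75.3 and 209 at the first site and 552, 581 and 557 at site 2 on 93212_at. Rhog, a small GTPase, read 155, 65.4, 181, 74.9 and 161 against 140, 129 and 134 on 97927_at, so replicates 2 and 4 stood apart from all other retina arrays there. These examples were chosen after their values were seen. No label separates these 2 arrays from the other 3, and a cause was not tested.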
